A study of Mus musculus with 6 samples.

Results

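The miR-99, miR-100 and miR-125 families were described in mouse epididymal white adipose tissue (WAT) from their small RNA sequencing values. The members were every listed arm of miR-99a, miR-99b, miR-100, miR-125a and miR-125b, which gave 11 of 1983 rows. A row was described when its value was above the floor of the table in at least 3 of 6 libraries, and 8 of the 11 rows met this, all of them in 6 of 6 libraries. The other 3 rows, miR-99a-3p, miR-100-3p and miR-125b-2-3p, were at the floor in every library. A value is log2 of the reads per 10000000 reads of a library total, and the floor is log2(10), or 3.32.

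The study compared 3 wild type (Wt) with 3 angiotensinogen transgenic (Agt Tg) male mice of strain C57BL6/J, to find miRNAs that differ when the renin–angiotensin system is overactive in fat. The transgene places angiotensinogen under the aP2 promoter, which is active in fat and, besides, in macrophages. The labels give a chow diet and the methods a low fat diet for both groups, and no source used here gives the age of the mice. The samples carry numbers only, so p-values measure the spread between these samples. The file headers of all libraries share 1 run code, which was read here as a flow cell lane though the headers do not say so. Library totals recovered from the values were 7480766, 7838874 and 9821467 reads for Wt replicates 1 to 3. They were 10367417, 6387766 and 10562634 reads for Agt Tg replicates 1 to 3.

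A miRNA hairpin yields a 5p and a 3p strand, and the strand loaded into Argonaute pairs with target mRNAs mainly through its seed, the bases near its 5′ end. The miR-125 family is the vertebrate relative of lin-4, and miR-100 is among the oldest miRNAs of animals. In mammals miR-99 or miR-100, let-7 and miR-125 are encoded side by side in repeated clusters, and these miRNAs are known for roles in growth signaling through mTOR and IGF1R, in differentiation and in the activation of macrophages.

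All 11 members had a mature mouse sequence in RefSeq (GRCm38.p6). The 5p strands carry nearly all reads of these families, and they are shown to make the shared seeds visible, with seed bases 2 to 8 in capitals. Those of miR-99a, miR-99b and miR-100 have one seed in common, and those of miR-125a and miR-125b another.
miR-99b-5p: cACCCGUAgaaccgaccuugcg
miR-99a-5p: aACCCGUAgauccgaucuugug
miR-100-5p: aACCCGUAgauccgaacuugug
miR-125a-5p: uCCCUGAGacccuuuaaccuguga
miR-125b-5p: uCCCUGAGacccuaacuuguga

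Counted from 1 at the 5′ end, miR-100-5p and miR-99a-5p differ by 1 substitution, A16U. Against miR-100-5p, miR-99b-5p has 4 substitutions, A1C, U11A, A16C and U21C. The first 13 bases of miR-125a-5p and miR-125b-5p are the same, and their lengths are 24 and 22 bases. How many mismatches the counting allowed is not given in the sources used here, so the split of reads between miR-99a-5p and miR-100-5p is uncertain to that extent.

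The 3p strands above the floor are shown because the 5p to 3p ratios compared between genotypes use them. The seeds of these 3 strands differ from each other and from those of the 5p strands.
miR-99b-3p: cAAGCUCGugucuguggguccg
miR-125a-3p: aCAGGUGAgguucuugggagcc
miR-125b-1-3p: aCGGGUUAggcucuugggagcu

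The members lie in 3 clusters of the mouse genome (GRCm38), each with a let-7 gene between a miR-99 or miR-100 gene and a miR-125 gene. On chromosome 17, Mir99b, Mirlet7e and Mir125a span 692 bases (chr17:17830188-17830879, plus strand) inside Spaca6, a protein-coding gene. Mir99b and Mirlet7e lie in its introns, and Mir125a overlaps an annotated exon. Mirlet7e also overlaps an exon of Gm25927 on the other strand. On chromosome 9, Mir100, Mirlet7a-2 and Mir125b-1 span 50.6 kb (chr9:41531425-41582002) in introns of the noncoding transcript 3110039I08Rik. Mir100 also overlaps an exon of Gm48742 on the other strand, and Mir125b-1 an exon of Gm28119 on the same strand. On chromosome 16, Mir99a, Mirlet7c-1 and Mir125b-2 span 47.4 kb (chr16:77598936-77646343) in introns of Mir99ahg. The mature miR-125b-5p is the same from chromosomes 9 and 16, so its row sums both loci, while miR-125b-1-3p comes from chromosome 9 alone.

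The tissue and the libraries were checked with marker miRNAs before the members were compared. Of 15 rows of an adipocyte or fat depot list, 11 were tested, and together they held 8.84 to 12.4% of the reads on listed miRNAs, led by miR-143-3p. Their mean share was 9.07% in Wt, or 8.88% without Wt replicate 2, and 10.8% in Agt Tg. These groups overlapped with all libraries, but not without Wt replicate 2 or without Agt Tg replicate 1. miR-193b-3p, miR-455-3p, miR-103a-2-5p and miR-365a-5p were at the floor in all libraries. Wt replicate 2 stood apart from the other 5 libraries. Its 24 rows of epithelium, epididymis and testis markers, led by miR-34c-5p, held 2.63% of reads on listed miRNAs, against 0.0612 to 0.0813% in the others, and 10 of these rows, miR-429 and miR-34b-5p among them, were at the floor throughout. Without Wt replicate 2 the mean share of this marker list was 0.0722% in Wt, against 0.0689% in Agt Tg. Genotype differences of the members are given with and without it, and so are the directions of the marker lists and the summed shares of the members, which was chosen after seeing the data.

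Blood and immune markers also differed between libraries. The 5 erythroid rows, led by miR-486-5p, held 3.18, 0.925 and 3.10% of reads on listed miRNAs in Wt replicates 1 to 3. In Agt Tg replicates 1 to 3 they held 3.90, 2.15 and 1.70%. The leukocyte list, led by miR-150-5p, held 0.759, 0.771 and 0.745% in Wt and 0.734, 0.605 and 0.521% in Agt Tg libraries, so its groups did not overlap, and 5 of its 10 rows, both arms of miR-155 among them, were at the floor. The endothelial rows, led by miR-126-5p, held 1.24 to 2.16%, the muscle rows, led by miR-133a, 0.00959 to 0.0308%, and the liver row miR-122-5p 0.00138 to 0.00267%. In bulk tissue, fewer cells of a type and less RNA per cell cannot be told apart. By mean log2 level, all 5 tested leukocyte rows were lower in Agt Tg, with and without Wt replicate 2, and the 2 endothelial rows and the liver row were higher. Other directions changed without Wt replicate 2. Of 5 erythroid rows 5 were higher with it and 2 without it, and of 2 muscle rows 0 and 1. Of 10 tested rows of the epithelium, epididymis and testis list 0 were higher with it and 5 without it. Of 11 adipocyte rows 8 were higher with all libraries, and 5 without Wt replicate 2 or without Agt Tg replicate 2. The mean erythroid share of Wt was 2.40% with Wt replicate 2 and 3.14% without it, against 2.58% in Agt Tg, or 1.92% without Agt Tg replicate 1. Of all these rows 1, miR-205-5p of the epithelium, epididymis and testis list, had an unadjusted p under 0.05 with all libraries (limma).

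The 5p strands were among the most abundant miRNAs of the tissue. miR-99b-5p ranked 5 and miR-125a-5p 7 of 329 rows by mean log2 value, followed by miR-125b-5p at 15, miR-100-5p at 20 and miR-99a-5p at 39. Their mean log2 levels over 6 libraries were 17.88 ± 0.32, 17.63 ± 0.24, 16.33 ± 0.24, 15.97 ± 0.10 and 13.83 ± 0.14 (SD, n = 6) in that order. This order was the same in 6 of 6 libraries, although the gap between miR-99b-5p and miR-125a-5p was small, from 0.041 to 0.47 on the log2 scale, and that between miR-125b-5p and miR-100-5p ranged from 0.026 to 0.66. Read counts of different strands also depend on how well each is ligated and amplified, which was not tested, so this is an order of reads.

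The 3p strands were far lower. miR-125b-1-3p had a mean log2 level of 9.70 ± 0.31, miR-99b-3p 6.88 ± 0.42 and miR-125a-3p 6.76 ± 0.23 (SD, n = 6). The order of the last 2 went with genotype, as miR-99b-3p was the higher of the pair in all 3 Wt libraries and the lower in all 3 Agt Tg libraries. In Agt Tg replicate 2, however, the counts were 59 and 61 reads, too close to order the pair. miR-99b-3p rested on 59 to 154 reads and miR-125a-3p on 61 to 135 reads per library, which limits the precision of both. For the 3 rows at the floor, a library could have held up to 6.39 to 10.6 reads without a value above it. Rows carry human names, and whether mouse reads of these strands could be counted under them was not tested.

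**Figure D1:**
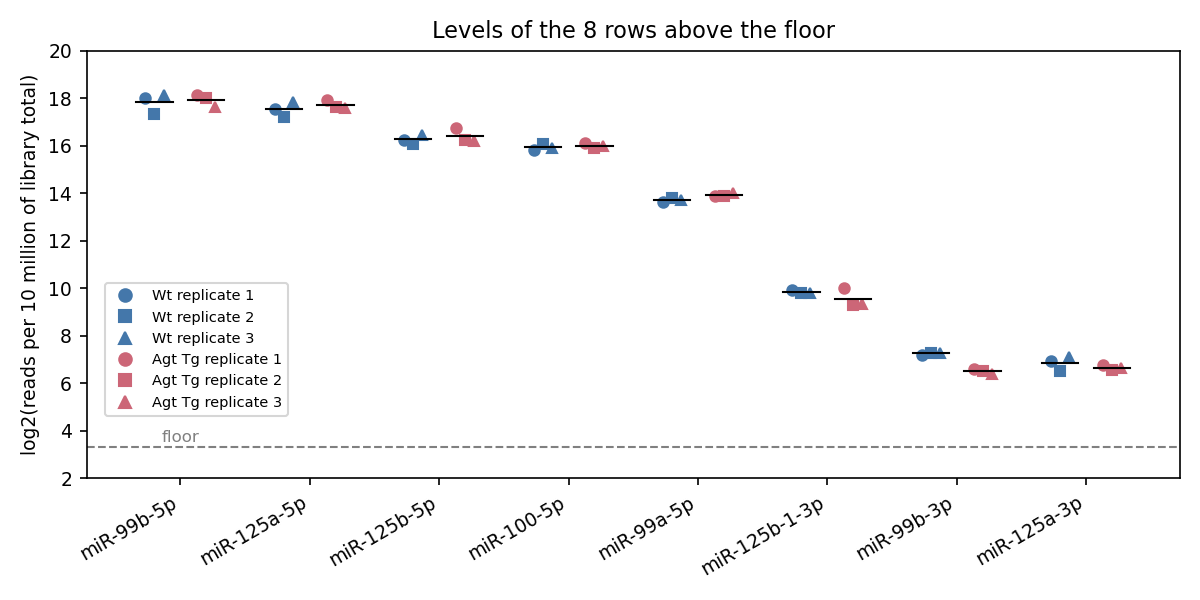
Levels of the 8 described rows in each library as log2 of reads per 10000000, with Wt in blue, Agt Tg in red, a black line at each group mean and the floor dashed. The 5p strands lie between 13.63 and 18.16 and the 3p strands between 6.38 and 10.02, and the groups separate for miR-99b-3p, where all 3 Agt Tg libraries are lower, and for miR-99a-5p, where they are higher.

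miR-100-5p and miR-99a-5p varied little between libraries. miR-100-5p had log2 values of 15.82, 16.07 and 15.92 in Wt and 16.10, 15.93 and 15.97 in Agt Tg replicates 1 to 3, a range of 0.29. The range of miR-99a-5p was 0.40, against a median range of 1.11 over the 329 rows. In share of rows with an equal or smaller range, miR-100-5p stood at 0.608% and miR-99a-5p at 3.34%. miR-99b-5p, in contrast, ranged over 0.81 and stood at 30.4%.

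Together the 8 rows held 8.60 to 12.1% of reads on listed miRNAs in Wt and 10.2 to 13.7% in Agt Tg libraries. Wt replicate 2 had the lowest share and Agt Tg replicate 1 the highest, and the groups overlapped. By seed, the miR-99 and miR-100 strands held 5.74% ± 1.05 in Wt and 6.25% ± 0.925 in Agt Tg (SD, n = 3), and the miR-125 strands 4.91% ± 0.824 and 5.70% ± 0.902. Without Wt replicate 2 the Wt means were 6.34% and 5.34%, so the direction for the miR-99 and miR-100 strands turned. Without Agt Tg replicate 3 their groups did not overlap, with a difference of 1.03 percentage points (Agt Tg minus Wt) against 0.508 with all libraries. For the miR-125 strands the difference was 0.791 with all libraries and 0.282 without Agt Tg replicate 1. It was 1.18 without Wt replicate 3, where the groups did not overlap. The 95% Wilson interval of any of these shares in one library reached at most 0.0350 percentage points to either side. This interval covers counting error only and does not measure the spread between mice.

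Within each seed group 1 member led. miR-99b-5p made up 75.2% ± 7.24 of the miR-99 and miR-100 reads in Wt and 75.3% ± 3.20 in Agt Tg libraries (SD, n = 3). miR-100-5p made up 20.4% ± 6.07 and 19.9% ± 2.29, and miR-99a-5p 4.39% ± 1.16 and 4.79% ± 0.935. In the miR-125 group, miR-125a-5p held 70.7% ± 1.77 in Wt and 71.3% ± 1.97 in Agt Tg libraries, and miR-125b-5p the rest. With all libraries the makeup of both groups differed between genotypes by less than the spread between replicates. Without Wt replicate 2 the Wt means were 79.4% for miR-99b-5p, 16.9% for miR-100-5p and 3.71% for miR-99a-5p. The groups then did not overlap, with miR-99b-5p lower and the other 2 higher in Agt Tg. In the miR-125 group they overlapped in both cases.

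**Figure D2:**
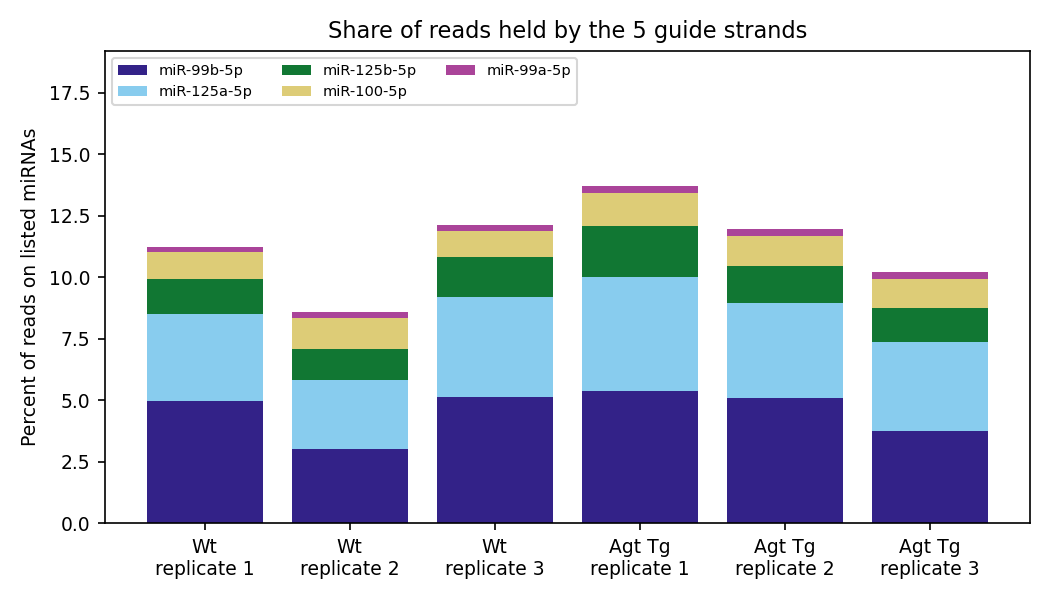
Percent of reads on listed miRNAs held by each of the 5 guide strands, stacked from 0, in each library. miR-99b-5p and miR-125a-5p make up most of every bar, and the bar of Wt replicate 2 is the lowest.

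None of the 5 guide strands differed between genotypes past a threshold. The log2 values of miR-99b-5p were 18.03, 17.35 and 18.16 in Wt and 18.13, 18.00 and 17.64 in Agt Tg replicates 1 to 3. Wt replicate 2 was the lowest library, and the other Wt libraries lay near Agt Tg replicates 1 and 2. The log2 fold change was 0.077 with all libraries (limma, SE 0.25, adjusted p = 0.893) and -0.17 without Wt replicate 2. Without Agt Tg replicate 1 it was -0.026, so its direction is not set by these data.

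For miR-125a-5p the log2 values were 17.56, 17.22 and 17.84 in Wt and 17.92, 17.62 and 17.60 in Agt Tg. The groups overlapped, and the log2 fold change was 0.17 (limma, SE 0.20, adjusted p = 0.710), or 0.014 without Wt replicate 2 and 0.32 without Wt replicate 3, where the groups did not overlap. For miR-125b-5p the values were 16.24, 16.09 and 16.47 in Wt and 16.76, 16.23 and 16.20 in Agt Tg. Only Agt Tg replicate 1 was above all Wt libraries, and the log2 fold change of 0.13 (limma, SE 0.21, adjusted p = 0.786) became 0.041 without Wt replicate 2 and -0.052 without Agt Tg replicate 1. miR-100-5p had a log2 fold change of 0.067 (limma, SE 0.15, adjusted p = 0.838), or 0.13 without Wt replicate 2, where the groups did not overlap, and 0.016 without Agt Tg replicate 1.

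miR-99a-5p was the guide strand whose groups did not overlap. Its log2 values were 13.63, 13.81 and 13.72 in Wt and 13.90, 13.87 and 14.03 in Agt Tg. All 3 Agt Tg libraries were higher, but by little: the log2 fold change was 0.21 with a 95% confidence interval from -0.17 to 0.59 (limma, SE 0.16, adjusted p = 0.616). It was 0.25 without Wt replicate 2.

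miR-99b-3p, the minor strand of the Mir99b hairpin, was lower in Agt Tg mice. Its log2 values were 7.20, 7.28 and 7.29 in Wt and 6.61, 6.53 and 6.38 in Agt Tg replicates 1 to 3. Every Agt Tg library was below every Wt library, with a log2 fold change of -0.75 and a 95% confidence interval from -1.35 to -0.16 (limma, SE 0.25). Its unadjusted p was under 0.05, and it did not pass adjustment over the 329 rows (limma, adjusted p = 0.382). The unadjusted p was under 0.05 in 2 of the 6 omissions, those of Wt replicate 2 and of Agt Tg replicate 1, with a log2 fold change of -0.80 to -0.69 over all 6 omissions and of -0.74 without Wt replicate 2. The groups of the leukocyte share did not overlap either, and the part of these markers in the level of miR-99b-3p was not tested.

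The other 3p strands overlapped between groups. miR-125b-1-3p had log2 values of 9.93, 9.82 and 9.82 in Wt and 10.02, 9.28 and 9.36 in Agt Tg, where replicate 1 was the highest library and replicates 2 and 3 were the lowest. Its log2 fold change was -0.30 (limma, SE 0.26, adjusted p = 0.665). It was -0.32 without Wt replicate 2, -0.17 without Agt Tg replicate 2 and -0.54 without Agt Tg replicate 1, where the groups did not overlap. miR-125a-3p had values of 6.94, 6.50 and 7.10 in Wt and 6.79, 6.58 and 6.64 in Agt Tg, with a log2 fold change of -0.18 (limma, SE 0.29, adjusted p = 0.782), or -0.35 without Wt replicate 2, where the groups did not overlap. It was -0.053 without Wt replicate 3, -0.057 with TMM and -0.028 with median-of-ratios scaling.

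**Figure D3:**
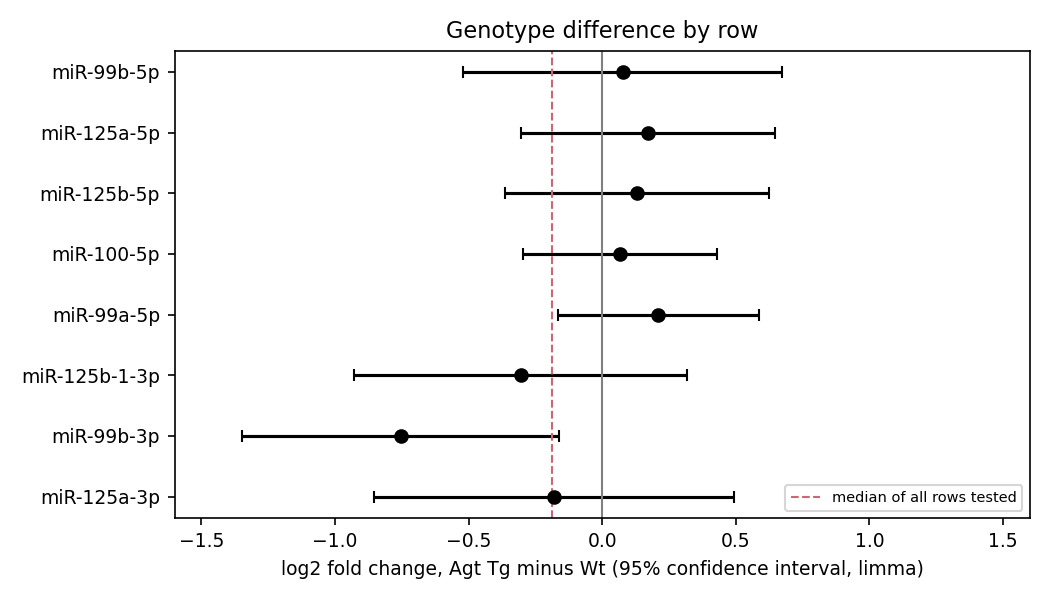
Log2 fold change of Agt Tg against Wt for the 8 described rows, with 95% confidence intervals from limma (3 libraries per group), a line at 0 and a dashed line at the median of the 329 rows tested, -0.19. The interval of miR-99b-3p, from -1.35 to -0.16, is the one that does not reach 0, and the 5p strands lie to the right of the dashed line.

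Set against all rows, these counts were not out of the ordinary. With an unadjusted p of at most 0.05 and a change of at least 2-fold, limma called 16 of 329 rows (4.86%), 9 higher and 7 lower in Agt Tg, and 0 of the 8 members. The 16 rows became 35 without Agt Tg replicate 1, 10 higher and 25 lower. Without Wt replicate 3 limma called 9 higher and 13 lower, and without Agt Tg replicate 3 it called 9 higher and 4 lower. The balance of directions thus changes with the libraries used. The 16 rows became 7 with log2(CPM + 1) and 3 with a mean CPM of at least 10, and the members called stayed at 0 in each. At an unadjusted p under 0.05 it called 30 rows (9.12%), of which 15 were lower (4.56%), and 1 of the 8 members, miR-99b-3p. The 30 rows became 16 without Wt replicate 1, 18 without Agt Tg replicate 3, 48 without Wt replicate 2 and 53 without Agt Tg replicate 1. After Benjamini-Hochberg adjustment limma called 0 of 329 rows (0%), as did limma-voom, which had 32 rows at an unadjusted p under 0.05. Groups did not overlap for 58 rows (17.6%), of which 35 were lower in Agt Tg (10.6%), and for 2 of the 8 members, miR-99b-3p and miR-99a-5p.

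Over all 329 rows tested, 107 were higher and 222 lower in Agt Tg. By group means, 5 members were higher and 3 lower, with the 5p strands on one side and the 3p strands on the other. This split was the same with TMM, with median-of-ratios and with miR-191-5p scaling, while miR-99b-5p and miR-125b-5p changed sign when 1 library was left out, as given above. The median log2 fold change of the 8 members was 0.072, against -0.19 over all 329 rows, -0.25 over 108 rows named 3p and -0.18 over 147 rows named 5p. The median over all rows moved to -0.065 with TMM and -0.036 with median-of-ratios scaling. With TMM the log2 fold changes were 0.20 for miR-99b-5p, 0.29 for miR-125a-5p, 0.25 for miR-125b-5p, 0.19 for miR-100-5p and 0.33 for miR-99a-5p. With median-of-ratios scaling they were 0.23, 0.32, 0.28, 0.22 and 0.36 in that order. For miR-99b-3p and miR-125b-1-3p they were -0.63 and -0.18 with TMM, and -0.60 and -0.15 with median-of-ratios scaling. Relative to the median of the values as deposited, miR-99b-3p differed by -0.57, miR-99a-5p by 0.40 and miR-99b-5p by 0.26.

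The ratio of the 5p to the 3p strand within a library does not depend on how libraries are scaled. For miR-99b the log2 ratio was 10.83, 10.07 and 10.86 in Wt and 11.52, 11.47 and 11.26 in Agt Tg replicates 1 to 3. For miR-125a it was 10.62, 10.72 and 10.73 in Wt and 11.12, 11.04 and 10.96 in Agt Tg. For miR-125b-5p over miR-125b-1-3p, whose first strand comes from both of its loci, it was 6.31, 6.28 and 6.65 in Wt and 6.75, 6.95 and 6.85 in Agt Tg.

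In all 3 pairs every Agt Tg library was above every Wt library. The log2 ratio was higher by 0.83 for miR-99b, 0.35 for miR-125a and 0.43 for miR-125b. The exact two-sided permutation test gave p = 0.1 for each, the smallest p that 3 against 3 libraries allow, and an adjusted p of 0.367 over the 11 ratios tested. Without Wt replicate 2 the differences were 0.57, 0.37 and 0.36, so this library holds part of the size for miR-99b.

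**Figure D4:**
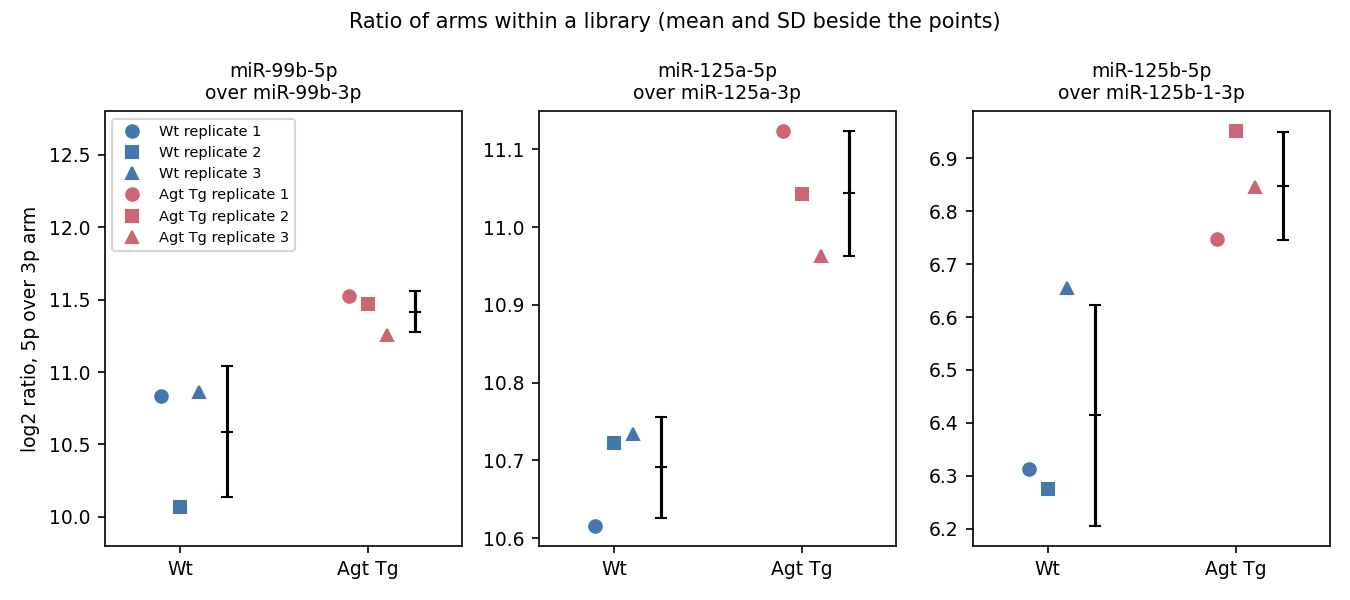
Log2 ratio of the 5p to the 3p strand in each library for miR-99b, miR-125a and miR-125b, with the mean and SD (n = 3) beside the points and a separate vertical scale in each panel. All Agt Tg points lie above all Wt points in each panel, with Wt replicate 2 lowest for miR-99b at 10.07.

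This pattern was noticed after the values were seen. The same ratio was then taken for all 63 strand pairs with both strands above the floor in 6 of 6 libraries. Of these, miR-30c-5p entered both over miR-30c-1-3p and over miR-30c-2-3p. Groups did not overlap for 7 of the 63 ratios (11.1%), of which 5 were higher in Agt Tg (7.94%), and the 3 member ratios were among these 5. The other 2 that were higher were those of miR-409 and miR-361, and the 2 that were lower were those of miR-15b and miR-30a. The difference of miR-99b was the largest increase of the 63, at 0.83 with a 95% confidence interval from 0.23 to 1.43 (limma, adjusted p = 0.371). limma called 3 of 63 ratios at an unadjusted p under 0.05 (4.76%), 1 of them a member ratio, and 0 after adjustment. The 3 ratios became 1 without Wt replicate 1 and 7 without Wt replicate 2.

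The median difference over the 63 ratios was 0.098, and 39 were higher in Agt Tg, the 3 member ratios among them. Leaving out 1 library cannot lower the count of 7 ratios whose groups do not overlap. It was 20 without Wt replicate 2 and 9 to 12 in the other 5 omissions. miR-99b ranked 7 by size without Wt replicate 2 and 4 without Agt Tg replicate 1.

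The guide strands of the chromosome 17 cluster did not move together with their let-7 neighbour. let-7e-5p had log2 values of 12.91, 13.62 and 13.11 in Wt and 12.85, 13.40 and 13.49 in Agt Tg, and was highest in Wt replicate 2, where miR-99b-5p and miR-125a-5p were lowest. The log2 ratio of let-7e-5p over miR-125a-5p was -4.65, -3.60 and -4.73 in Wt and -5.06, -4.23 and -4.11 in Agt Tg, with groups that overlapped (exact two-sided permutation p = 0.8, adjusted p = 0.9). The log2 ratio of miR-99b-5p over miR-125a-5p stayed between 0.041 and 0.47, with a mean of 0.31 ± 0.17 in Wt and 0.21 ± 0.17 in Agt Tg (SD, n = 3). Its groups overlapped as well (exact two-sided permutation p = 0.5, adjusted p = 0.825).

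On the minor strands of the same cluster, let-7e-3p was 7.50, 7.28 and 7.64 in Wt and 7.11, 7.23 and 6.72 in Agt Tg. All 3 Agt Tg libraries were lower, as for miR-99b-3p, with a log2 fold change of -0.45 (limma, SE 0.28, adjusted p = 0.556), or -0.55 without Wt replicate 2, while miR-125a-3p overlapped.

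The same contrast held for the other let-7 guide strands. The 3p strands went both ways, as let-7b-3p and let-7i-3p were lowest and let-7a-2-3p was highest in Wt replicate 2. All 9 guide strands of the let-7 and miR-98 family were highest in Wt replicate 2, while 3 of the 5 member guide strands, miR-99b-5p, miR-125a-5p and miR-125b-5p, were lowest there. The let-7 and miR-98 guide strands held 7.01, 13.0 and 6.45% of reads on listed miRNAs in Wt and 6.74, 9.68 and 10.5% in Agt Tg replicates 1 to 3. By genotype, 16 let-7 and miR-98 rows were tested and 1 had an unadjusted p under 0.05 (limma), let-7f-1-3p, which lay near the floor, with a median log2 fold change of -0.052 over the 16, or 0.10 without Wt replicate 2.

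Level differences of miR-99b-5p were in part ordered as those of the erythroid markers. The 3 libraries with the lowest erythroid share, Wt replicate 2, Agt Tg replicate 3 and Agt Tg replicate 2, were also the 3 with the lowest miR-99b-5p, in the same order. In the other 3 the orders differed, with the highest erythroid share in Agt Tg replicate 1 and the highest miR-99b-5p in Wt replicate 3. miR-191-5p, which is not on the erythroid list, had the same order of the 6 libraries as miR-99b-5p. The erythroid top marker, miR-486-5p, had a log2 value of 15.55 in Wt replicate 2 and 16.42 to 17.62 in the others. Wt replicate 2 was also the library with the high epithelium, epididymis and testis markers, and the part of either in the level of miR-99b-5p was not tested.

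**Figure D5:**
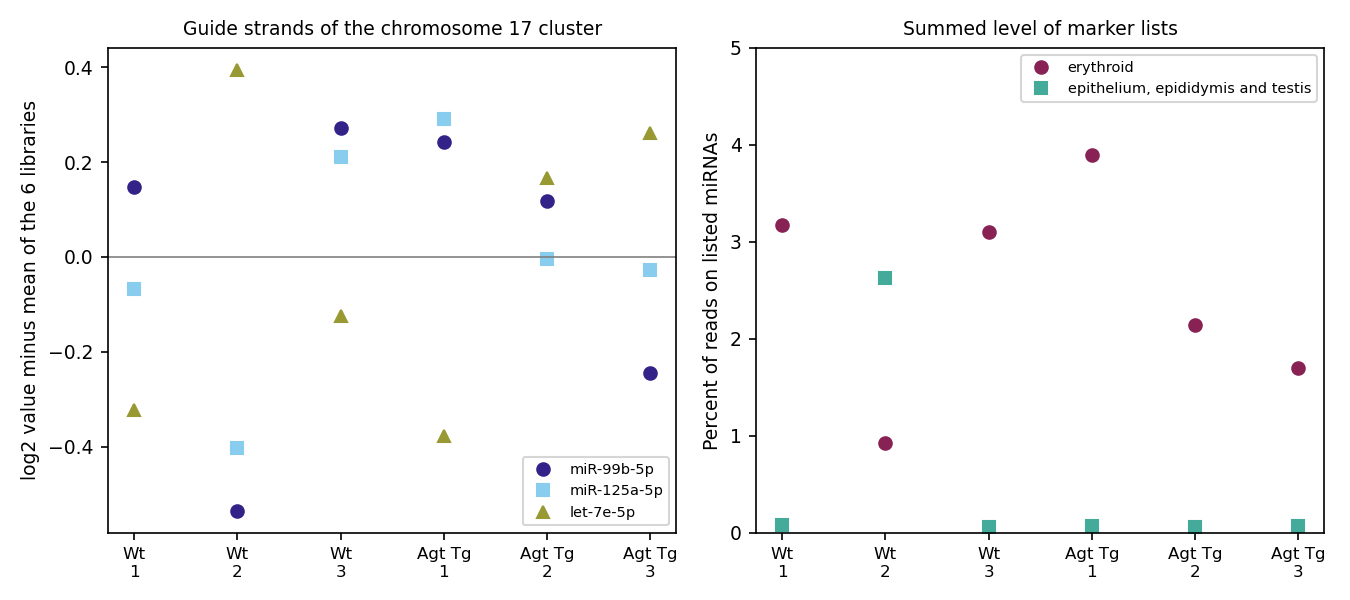
Left, log2 values of miR-99b-5p, miR-125a-5p and let-7e-5p in each library, minus the mean of each over the 6 libraries. Right, summed share of the erythroid and the epithelium, epididymis and testis marker lists in percent of reads on listed miRNAs. In Wt replicate 2 the miR-99b-5p and erythroid points are lowest (0.925%), and those of let-7e-5p and of the other marker list are highest (2.63%).

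Neither the other clusters nor the paralogues gave a ratio that separated the groups. The log2 ratio of miR-99a-5p over miR-100-5p was -2.19, -2.26 and -2.19 in Wt and -2.20, -2.06 and -1.95 in Agt Tg (exact two-sided permutation p = 0.3, adjusted p = 0.825). Agt Tg replicate 1 lay within the Wt libraries, and without it the groups did not overlap. miR-125b-5p over miR-125a-5p was -1.27 ± 0.12 in Wt and -1.31 ± 0.14 in Agt Tg (SD, n = 3), a difference smaller than the spread, and it separated the groups only without Agt Tg replicate 1, by -0.12.

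For miR-99b-5p over miR-99a-5p the mean log2 ratio was 4.13 ± 0.50 in Wt and 3.99 ± 0.33 in Agt Tg (SD, n = 3). The low Wt replicate 2, at 3.54, made the groups overlap. Without it the difference was -0.43 (Agt Tg minus Wt, log2), and the groups did not overlap. miR-99a-5p over miR-125b-5p, miR-100-5p over miR-125b-5p and let-7c over miR-99a-5p overlapped, with differences of 0.081, -0.063 and -0.24 (Agt Tg minus Wt).

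The 5p strands of miR-10, a relative of miR-99 and miR-100, were above the members in level. miR-10b-5p ranked 1 and miR-10a-5p 3 of 329 rows, while miR-10a-3p ranked 172 and miR-10b-3p 186. The 5p strands had log2 fold changes of -0.12 (limma, adjusted p = 0.734) and -0.17 (limma, adjusted p = 0.626). miR-10a-3p was lower in all 3 Agt Tg libraries, as was miR-99b-3p, with a log2 fold change of -0.51 (limma, adjusted p = 0.553), or -0.28 without Wt replicate 2. The groups of miR-10b-3p overlapped, at -0.28 (limma, adjusted p = 0.710). It was -0.13 without Wt replicate 2, -0.097 without Agt Tg replicate 1 and -0.48 without Wt replicate 1, where the groups did not overlap. miR-191-5p, the reference of the RT-qPCR assays of the study, had a log2 fold change of 0.0051 (limma, adjusted p = 0.987), or -0.22 without Wt replicate 2, and was lowest in Wt replicate 2 at 16.58, as was miR-99b-5p.

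Next to the guide strands in mean level were miR-143-3p above and miR-26a-5p below miR-99b-5p, and miR-26a-5p above and let-7f-5p below miR-125a-5p. miR-125b-5p lay between miR-30a-5p and miR-30d-5p, miR-100-5p between miR-148a-3p and miR-126-5p, and miR-99a-5p between let-7d-5p and miR-25-3p. By pattern, the rows most like the mean centred profile of the members over 6 libraries were miR-4443 (Pearson r = 0.96), miR-1249 (0.95), miR-501-3p (0.92), miR-127-3p (0.92) and miR-342-3p (0.91). Not all members shared this profile. Against the mean of the other members, r was 0.76 for miR-125a-3p, 0.73 for miR-125b-5p, 0.61 for miR-125b-1-3p, 0.59 for miR-125a-5p and 0.56 for miR-99b-5p. It was 0.012 for miR-99b-3p, -0.10 for miR-100-5p and -0.56 for miR-99a-5p. These coefficients describe 6 libraries that share their scaling, and the profile itself moved by no more than 0.17 from its mean.

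Known targets of these families carry a match to the seeds in their longest annotated 3′ UTR (GENCODE M21, GRCm38), shown because the seed groups differ in how common their match is. The match to bases 2 to 8 of miR-99 and miR-100, TACGGGT, was searched on the transcript strand and occurred in 1.10% of 20997 genes, and that of miR-125, CTCAGGG, in 13.1%. Each of 3 genes named for miR-99 and miR-100, Mtor, Smarca5 and Igf1r, held 1 match, and so did each of 3 named for miR-125, Lin28a, Bak1 and Irf4. The matches of Mtor, the kinase of growth signaling, and Igf1r, the IGF1 receptor, are in capitals.
Mtor (chr4:148557141-148557160, plus strand): ctgagaaaTACGGGTtttga
Igf1r (chr7:68232099-68232118, plus strand): cagtagatTACGGGTagtcg

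These matches describe the sequence only, and the levels of these mRNAs were not analysed here.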

How the data were processed

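The authors sequenced small RNA libraries of epididymal WAT from 3 Wt and 3 Agt Tg mice. With miRBase precursors as the reference, they kept only alignments to mature miRNAs. The methods also name Qseq version 12 with GRCm38.p4, and the labels mm10. The miRBase release is not given in the sources used here, and rows carry human miRNA names. The authors deposited log2 values of reads per 10000000, with values under 10 raised to 10. Linear values above the floor came out as whole reads for 1924 of 1924 values (tolerance 0.02 reads), which gave the library totals. The 329 rows that exceeded the floor in 3 or more libraries were fitted with limma 3.58.1 in R 4.3.3 (genotype, variance trend, Benjamini-Hochberg), tested on simulated data. As the table holds log2 values, limma was the main test, and limma-voom, which starts from counts, was run as an alternative. Ratios were tested by exact permutation. No 2 libraries agreed within sampling noise. Members, marker lists, named miRNAs (cluster let-7, miR-10, miR-191-5p, neighbours in level and pattern) and target genes were chosen with earlier results of these data known. The alternatives were TMM, median-of-ratios and miR-191-5p scaling, log2(CPM + 1), limma-voom, no trend, other filters, a replicate block and leaving out each library.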

Additional observations from a re-analysis of the deposited data

How the results depend on the processing

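The number of rows past the threshold (16) became 7 with log2(CPM + 1) and 3 with a mean CPM of at least 10, which tested 209 rows, and ranged from 12 (without Wt replicate 1) to 35 (without Agt Tg replicate 1) when 1 library was left out. Other alternatives gave 14 to 17, or 15 with no filter. Rows at the floor in all libraries have no spread and could not be fitted, so no filter meant the 373 rows above it in any library. With the values as deposited, 9 of the 16 calls were higher, against 10 of 15 with TMM and 11 of 15 with median-of-ratios scaling.

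The 1 member at an unadjusted p under 0.05, miR-99b-3p, numbered 0 to 1 when 1 library was left out. Counting groups that do not overlap, chosen after seeing the data, gave 2. With the replicate number as a replicate block the member count was 0, the count of all rows 17 and that of ratios with one sign in all 3 numbers 3. Correlations of deviations across rows were 0.22, -0.18 and -0.21 for same-numbered samples, and -0.30 to 0.28 for samples of different numbers. These values show no pairing by number, but with 3 libraries per group they cannot exclude one.

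The count of 3 ratios without overlap, which leaving out a library cannot lower, was 3 to 5 (5 without Agt Tg replicate 1), and limma over the 63 strand pairs, added after seeing the data, gave 1. With 1 library left out, log2 fold changes ranged from -0.052 to 0.23 for miR-125b-5p and from -0.17 to 0.23 for miR-99b-5p. The cause of these changes was not tested. Differences of the log2 ratio (Agt Tg minus Wt) changed sign for 6 of the 11 pairs. They ranged for miR-125b-5p over miR-125a-5p from -0.12 to 0.026, miR-99b-5p over miR-99a-5p from -0.43 to 0.055, miR-99a-5p over miR-125b-5p from -0.064 to 0.28, miR-100-5p over miR-125b-5p from -0.17 to 0.093, let-7e-5p over miR-125a-5p from -0.34 to 0.23 and let-7c over miR-99a-5p from -0.41 to 0.074. Low read numbers limit miR-99b-3p and miR-125a-3p.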
